A study of Mus musculus with 36 samples.

Results

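The 36 genes described here encode products best known from the cells that support a tissue: matricellular proteins, proteoglycans and fibrillin of the extracellular matrix, the enzymes and chaperone that finish and cross-link it, contractile proteins of smooth muscle and myofibroblasts, surface receptors and signalling proteins of mesenchymal cells, and 3 proteins named for endothelium. Collagens are not among them. They are 36 of the 36528 genes in the deposited table, and all 36 were found by symbol. The members were partly chosen by measured values, as genes lower in Cop1-floxed than in wild-type cells of these same libraries, so every comparison of the members between genotypes is a description without a test.

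The cells were mouse bone marrow-derived macrophages, which are grown out of marrow as adherent cultures over several days. Cop1-floxed cultures carried loxP-flanked Cop1, and wild-type cultures carried the intact gene; Cop1 encodes the substrate-recognising part of a ubiquitin ligase. All cultures of both genotypes also carried CreERT2 at Rosa26, a recombinase that tamoxifen switches on. Whether and when it was switched on, the exons flanked by loxP, and the age and sex of the mice are not given in the sources used here. On day 7 the cells received 100 ng/ml lipopolysaccharide (LPS), a bacterial wall component that activates macrophages, and were lysed at times labelled T2.5, T4, T6, T9 and T13, whereas T0 cultures stayed untreated. Cultures of 3 mice per genotype were each sampled at every time, so the 36 libraries form 12 groups with n = 3. No untreated culture was sampled after T0, so LPS and time in culture cannot be told apart.

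Matrix genes of this kind are made mainly by fibroblasts, osteoblast precursors and the cells around vessels, and transforming growth factor beta (TGF-beta) is a well-known inducer of many of them. Actin, transgelin and myosin light chain of the contractile set are driven by serum response factor in smooth muscle and in activated fibroblasts. Pecam1 is also found on myeloid cells and platelets, so not every member named for endothelium is restricted to it.

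The libraries held 24069541 to 40298009 uniquely aligned reads on genes, with a median of 34549113. Cop1 itself had 5.37 to 8.71 CPM (counts scaled to a common library size by TMM) in the 18 Cop1-floxed libraries and 9.92 to 15.1 CPM in the 18 wild-type libraries, with no overlap. Macrophage genes dominated: the summed level of 12 macrophage markers at T0 was 25820 to 27306 CPM in Cop1-floxed libraries and 20832 to 24740 CPM in wild-type libraries. Lyz2 made up most of these sums, with a mean of 17111 CPM in Cop1-floxed and 12320 CPM in wild-type T0 cultures. Of the other markers, C1qa, C1qb and Mrc1 averaged lower in Cop1-floxed cultures and the rest higher. All 36 members together held 221.6, 323.5 and 331.4 CPM in the Cop1-floxed T0 libraries, against 612.8, 1057 and 1432 CPM in the wild-type T0 libraries. A pair of observations on single mice bears on what follows. The libraries of wild-type mouse 2 held both Xist, at 25.6 to 89.8 CPM, and the Y-linked gene Ddx3y, at 12 to 26.6 CPM, whereas in the other 5 mice Xist stayed at or below 0.900 CPM and Ddx3y at or above 30.8 CPM. Whether the libraries of wild-type mouse 2 hold cells of more than 1 mouse was not tested; they are counted as 1 mouse, as labelled, and the median genotype differences are also given without it. The T9 library of Cop1-floxed mouse 2 detected 15045 genes, against 17622 to 19693 in the other 35 libraries.

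Of the 36 members, 34 passed the filter on low counts, which asks for enough reads in at least as many libraries as the smallest group holds; a gene high in 1 genotype alone can pass it. Eln, the elastin gene, had 0 reads in 34 libraries and 1 read in each of the other 2, both wild type. Thy1, a surface marker of fibroblasts and T cells, had 51 reads over the 18 Cop1-floxed libraries and 116 over the 18 wild-type libraries. Lum, the proteoglycan lumican, passed with 81 and 185 reads in the same order. Elastin, Thy1 and lumican thus had few or no reads in these cultures.

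Levels per gene length, as the deposited RPKM values, which divide the reads by gene size and depth, spanned a wide range. The 5 highest members in the wild-type libraries were Bgn, Tagln, Acta2, Sparc and Timp3. Bgn, the proteoglycan biglycan, averaged 15.1 RPKM over the Cop1-floxed libraries and 53.6 RPKM over the wild-type libraries. The corresponding means were 10.8 and 34.5 RPKM for Tagln, the actin-binding transgelin, and 8.74 and 33.9 RPKM for Acta2, smooth muscle alpha-actin. Acta2, at 7.66 to 64.9 RPKM over the wild-type libraries, overlapped both neighbours in this order. At the low end stood Dclk1, Lgr6, Pdgfra and Sulf1, each under 1 RPKM on average in either genotype, and below them Lum, Thy1 and Eln.

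In untreated cultures 32 of the 34 tested members had a lower fitted level in Cop1-floxed than in wild-type cells. The median log2 fold change (Cop1-floxed over wild type, from the edgeR fit) was -1.79 over the members and 0.03 over all 15685 genes tested. For 29 members all 3 Cop1-floxed libraries lay below all 3 wild-type libraries at T0, which was also true of 7.58% of all genes tested; the choice of the members used this contrast, so nothing is read from that count. In bulk RNA, fewer cells of a type and less RNA of these genes per cell cannot be told apart.

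**Figure D1:**
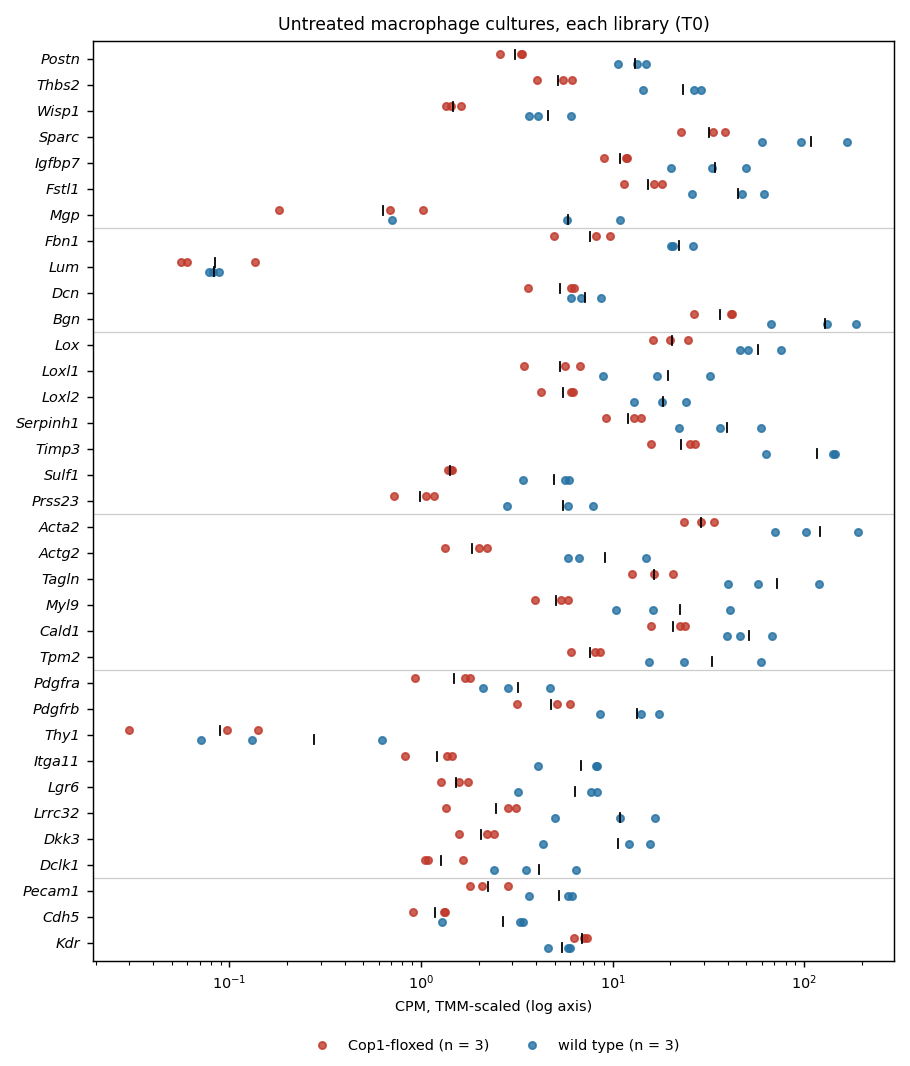
Level of 35 members in untreated cultures (Eln, with almost no reads, is left out). The x axis is TMM-scaled CPM on a log axis; each point is 1 library, Cop1-floxed above wild type, the black bar is the mean of 3, lines separate the roles, and the 1 Thy1 library with 0 reads is drawn at the left edge. The Bgn points lie at 26.6 to 41.8 CPM in Cop1-floxed libraries and at 67.0 to 187 CPM in wild-type libraries, whereas the Kdr points lie slightly higher in Cop1-floxed libraries.

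Among the 7 matricellular and secreted regulators the T0 log2 fold changes lay between -3.17 and -1.55. Sparc (chr11:55394159-55420080, GRCm38.p6), a collagen-binding matricellular protein, had 22.8, 33.5 and 38.8 CPM in the Cop1-floxed T0 libraries, against 60.6, 96.4 and 168 CPM in the wild-type T0 libraries, a log2 fold change of -1.77 ± 0.37 (SE). Mgp (chr6:136872435-136875823), matrix Gla protein, which restrains calcification, had 0.181, 0.689 and 1.03 CPM in the Cop1-floxed libraries, against 0.708, 5.81 and 11 CPM in the wild-type libraries. Mgp had the lowest fitted value of all members, -3.17 ± 0.86, but its groups overlapped, since wild-type mouse 1 lay within the Cop1-floxed range. Postn (periostin) at -2.08, Thbs2 (thrombospondin family) at -2.16, Igfbp7 (an insulin-like growth factor binding protein) at -1.66, Wisp1 (a CCN family signalling protein) at -1.64 and Fstl1 (a follistatin-like glycoprotein) at -1.55 had no overlap.

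The 4 tested structural matrix genes were the most uneven role. Bgn (chrX:73483601-73495936) had 26.6, 41.4 and 41.8 CPM in the Cop1-floxed T0 libraries, against 67.0, 132 and 187 CPM in the wild-type T0 libraries, a log2 fold change of -1.81 ± 0.39. Fbn1, fibrillin of the elastic microfibrils, was at -1.55 ± 0.18. Dcn, the proteoglycan decorin, was at -0.44 ± 0.22 and Lum at 0.02 ± 0.67, and for both the T0 groups overlapped. The related small proteoglycans biglycan, decorin and lumican thus differed widely in the size of the genotype difference.

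The 7 matrix enzymes, inhibitors and the chaperone lay between -2.47 and -1.50 at T0. Timp3 (chr10:86300412-86349505), a matrix-bound inhibitor of metalloproteinases, had 15.9, 25.5 and 26.8 CPM in the Cop1-floxed libraries, against 63.5, 142 and 144 CPM in the wild-type libraries, which the fit gave as 5.12-fold lower. Prss23 (chr7:89507783-89527187), a secreted serine protease, had 0.724, 1.06 and 1.17 CPM in the Cop1-floxed libraries, against 2.80, 5.83 and 7.91 CPM in the wild-type libraries, a log2 fold change of -2.47 ± 0.47. No library of 1 genotype reached the range of the other for either gene. The cross-linking lysyl oxidases Lox, Loxl1 and Loxl2 were at -1.50, -1.87 and -1.74, the collagen chaperone Serpinh1 at -1.71 and the heparan sulfate endosulfatase Sulf1 at -1.80.

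The 6 contractile genes lay between -2.29 and -1.31. Tagln (chr9:45929628-45936058) had 12.6, 16.4 and 20.6 CPM in the Cop1-floxed T0 libraries, against 40.1, 57.3 and 119 CPM in the wild-type T0 libraries. Actg2 (chr6:83512909-83536251), the gamma-actin of enteric smooth muscle, had 1.33, 2.01 and 2.20 CPM in the Cop1-floxed libraries, against 5.84, 6.71 and 14.9 CPM in the wild-type libraries, a log2 fold change of -2.29 ± 0.44. The highest wild-type library came from mouse 2 in both cases. Acta2 and Actg2 code for nearly identical proteins and the authors counted uniquely aligning reads, so the split of reads between them is uncertain. The others were Acta2 at -2.07, the myosin regulatory light chain Myl9 at -2.15, beta-tropomyosin Tpm2 at -2.11 and the actin-binding caldesmon Cald1 at -1.31.

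The 7 tested receptors and signalling proteins lay between -2.49 and -1.13. Lrrc32 (chr7:98489305-98501831), which holds latent TGF-beta at the cell surface, had 1.35, 2.85 and 3.15 CPM in the Cop1-floxed T0 libraries, against 5.01, 10.9 and 16.7 CPM in the wild-type T0 libraries. Itga11 (chr9:62677855-62783979), a subunit of a collagen-binding integrin, had 0.825, 1.36 and 1.45 CPM in the Cop1-floxed libraries, against 4.09, 8.24 and 8.31 CPM in the wild-type libraries, a log2 fold change of -2.49 ± 0.43. The groups did not overlap for either gene. Dkk3 (a secreted Dickkopf family protein), Lgr6 (an R-spondin receptor) and Dclk1 (a doublecortin-like kinase) were at -2.37, -2.06 and -1.70, and the platelet-derived growth factor receptors Pdgfrb and Pdgfra were at -1.48 and -1.13.

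The 3 genes named for endothelium went separate ways. Pecam1 (chr11:106654213-106715281), an adhesion molecule of vessels and blood cells, had 1.81, 2.07 and 2.84 CPM in the Cop1-floxed T0 libraries, against 3.67, 5.87 and 6.16 CPM in the wild-type T0 libraries. Kdr (chr5:75932827-75979072), the main signalling receptor for vascular endothelial growth factor, had 6.32, 7.10 and 7.36 CPM in the Cop1-floxed libraries, against 4.58, 5.83 and 6.0 CPM in the wild-type libraries. For Kdr the order was turned round, with every Cop1-floxed library above every wild-type library. Cdh5, the cadherin of endothelial junctions, had 0.905, 1.32 and 1.34 CPM in the Cop1-floxed libraries, against 1.29, 3.30 and 3.41 CPM in the wild-type libraries, and overlapped through wild-type mouse 1. A list of 20 other endothelial genes was uneven. Of these, 9 stayed under 1 CPM in all 36 libraries, among them the endothelial junction gene Cldn5, the receptor Tek and the transcription factors Erg, Sox17 and Sox18, whose highest values were 0.288, 0.281, 0.395, 0.416 and 0.657 CPM. Another 8, among them Plvap, Egfl7, Tie1 and Emcn, reached 1 CPM in some libraries. These 4 averaged 0.245, 0.187, 0.14 and 0.292 CPM in Cop1-floxed T0 cultures, against 1.17, 0.923, 0.637 and 0.676 CPM in wild-type ones. Robo4 (0.109 against 0.273 CPM) and Cd34 (0.982 against 1.89 CPM) also averaged lower in Cop1-floxed T0 cultures. Flt4 was level, at 0.589 and 0.59 CPM, and Flt1 averaged higher, at 2.54 against 1.04 CPM. The other 3, genes that blood cells can also express, were above 1 CPM in every library. Eng was at 33.9 to 281 CPM, Vwf at 9.45 to 50.1 CPM and Tal1 at 8.48 to 48.1 CPM. Their T0 means were 43.1, 45.4 and 14.2 CPM in Cop1-floxed cultures and 43.3, 31.9 and 15.2 CPM in wild-type cultures. Pecam1, Cdh5 and Kdr are therefore treated below by name.

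The genotype difference lasted through the LPS course for most members. The members' median log2 fold change, Cop1-floxed over wild type, was -1.79, -1.70, -1.80, -1.81, -1.69 and -1.77 at T0, T2.5, T4, T6, T9 and T13, while the median of all genes tested stayed between -0.02 and 0.06. Without wild-type mouse 2 these medians were -1.56, -1.50, -1.51, -1.60, -1.48 and -1.47. After T0, the Cop1-floxed libraries lay below the wild-type libraries without overlap for 33 members at T2.5, 32 at T4, 28 at T6, 29 at T9 and 31 at T13, against 8.19%, 8.54%, 9.95%, 10.8% and 11.2% of all genes tested. The members that did so at every time numbered 27, against 1.68% of all genes tested; they were Postn, Thbs2, Wisp1, Sparc, Igfbp7, Fstl1, Fbn1, Bgn, Loxl1, Loxl2, Serpinh1, Timp3, Sulf1, Prss23, all 6 contractile genes and all 7 tested receptors and signalling proteins. Kdr did so at no time, and Mgp, Lum, Dcn, Lox, Pecam1 and Cdh5 at some times.

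**Figure D2:**
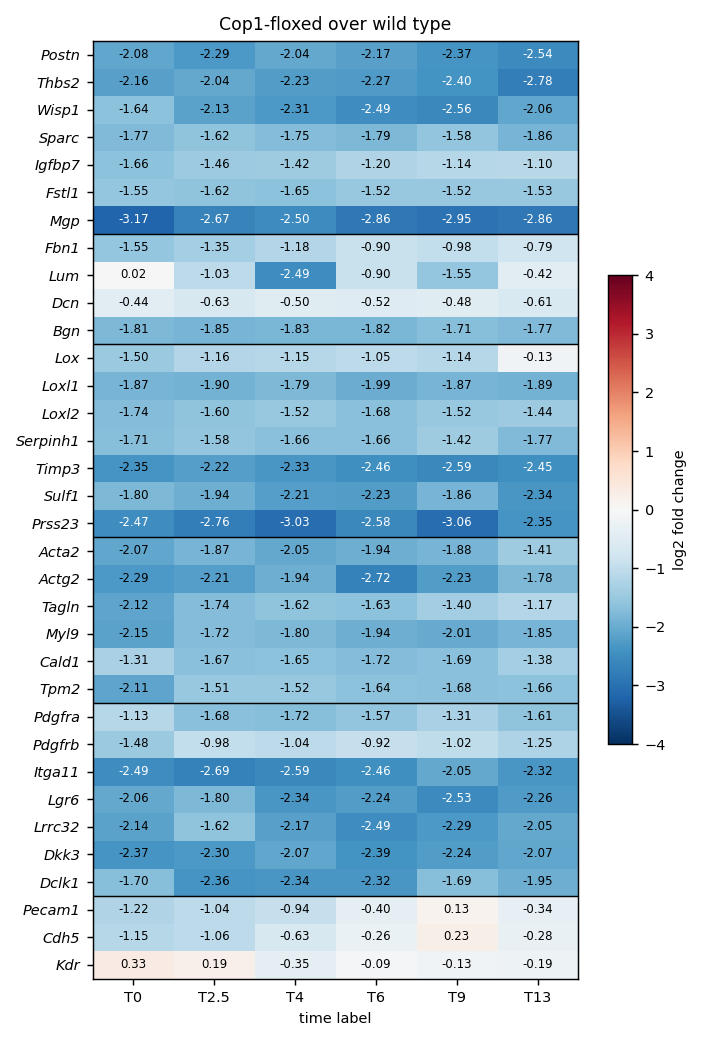
Log2 fold change of Cop1-floxed over wild type for the 34 tested members (rows, separated by role) at each time label (columns), with n = 3 libraries per genotype and time; blue is lower in Cop1-floxed cells. Columns stay blue over most rows, with medians between -1.81 and -1.69. Of the bottom 3 rows, Pecam1 and Cdh5 fade towards white from T6, and Kdr stays between -0.35 and 0.33 throughout.

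For several members the fitted gap was smaller at later times, a change that was not tested. Lox, the founding lysyl oxidase, was at -1.50 ± 0.23 at T0 and at -0.13 ± 0.23 at T13. Pecam1 was at -1.22 ± 0.22 at T0, 0.13 ± 0.21 at T9 and -0.34 ± 0.20 at T13, and Cdh5 at -1.15 ± 0.27, 0.23 ± 0.23 and -0.28 ± 0.23. Fbn1 was at -1.55 ± 0.18 at T0 and -0.79 ± 0.17 at T13, and Tagln at -2.12 ± 0.33 and -1.17 ± 0.34. In contrast, the fitted gap of Thbs2 was -2.16 ± 0.37 at T0 and -2.78 ± 0.48 at T13, also not tested. The same mice gave both times, so these SE do not measure the error of a change between times.

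The members also ordered the mice within each genotype. With each mouse averaged over its 6 times, 28 of the 34 tested members were highest in wild-type mouse 2, whose libraries held both Xist and Ddx3y reads, next in mouse 3 and lowest in mouse 1, an order shown by 27.4% of all genes tested. Of the 34, 20 were more than 1 log2 unit higher in wild-type mouse 2 than in mouse 1, against 1.72% of all genes, and the median of this difference was 1.11. Cop1-floxed mouse 2 was the lowest of the 3 Cop1-floxed mice for 33 members, against 39.0% of all genes. These are descriptions over genes from the same libraries, with no test over mice.

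**Figure D3:**
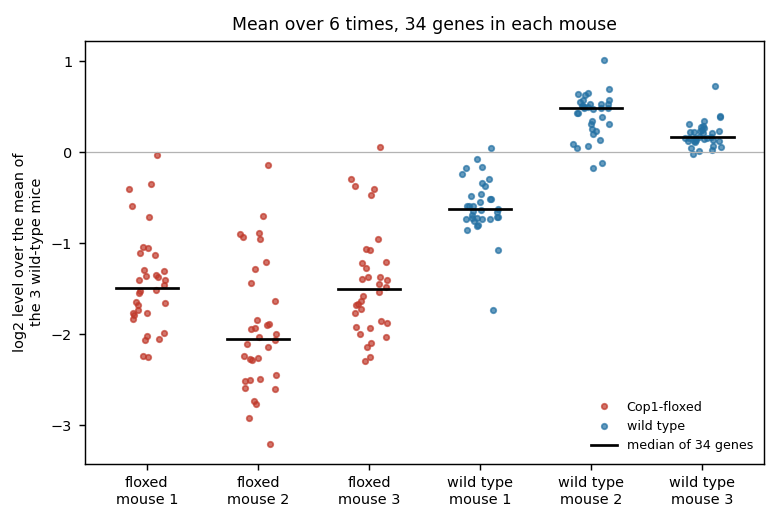
Level of each of the 34 tested members (points) in each mouse, as the mean log2 of CPM plus 0.1 over 6 times, relative to the mean of the 3 wild-type mice; black bars are medians over members. The medians are -1.49, -2.05 and -1.51 in Cop1-floxed mice 1, 2 and 3 and -0.63, 0.48 and 0.16 in wild-type mice 1, 2 and 3.

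The spread of each gene over the 36 libraries was divided into genotype, time, their interaction, mouse within genotype, and a remainder. The mouse took a median of 83.5% of the spread left within groups over the members, with a range of 21.4% to 98.5%, against a median of 27.5% over all genes tested. It was 98.5% for Fstl1, 98.2% for Bgn and 96.6% for Timp3, that is, the 6 cultures of a mouse stood at a like distance from their group means. It was 21.4% for Kdr and 22.2% for Fbn1. Time took 98.0% of all spread for Kdr and 82.3% for Cdh5, but 3.75% for Serpinh1, 3.76% for Itga11 and 5.08% for Sparc.

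Markers of other cells moved with some of these differences, and their part in them was not tested. At T0 the summed level of 12 neutrophil and progenitor markers was 46.4 to 58.1 CPM in Cop1-floxed libraries and 45.8 to 140 CPM in wild-type libraries. Among them Mpo, myeloperoxidase, averaged 0.988 ± 0.393 CPM in Cop1-floxed cultures and 18.3 ± 17.6 CPM in wild-type cultures (SD, n = 3 each). Elane, Prtn3, Ctsg, Camp, S100a9 and Cd34 also averaged lower in Cop1-floxed cultures. The others did not follow Mpo: in the same order of genotypes, Ngp was at 12.8 and 13.7 CPM and S100a8 at 10.1 and 10.1 CPM. Ltf was at 8.2 and 7.85 CPM and Kit at 0.905 and 0.795 CPM, and Ly6g had almost no reads. Sums at T0 were 0.342 to 0.671 against 0.513 to 2.60 CPM for 8 mast cell and basophil markers, 0.543 to 0.913 against 1.56 to 3.09 CPM for 8 lymphocyte markers, and 1.35 to 2.12 against 3.28 to 9.78 CPM for 6 cartilage markers, Cop1-floxed before wild type. For 8 erythroid and platelet markers the sums were 57.3 to 87.4 CPM in Cop1-floxed libraries and 76.2 to 141 CPM in wild-type libraries, and for 6 adipocyte markers 1072 to 1469 CPM in Cop1-floxed libraries and 962 to 1260 CPM in wild-type libraries. Mcpt4, Tpsb2, Cfd and Col9a1 had no reads in any library.

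Other stromal genes, taken from lists that exclude the members, were tested gene by gene with edgeR's quasi-likelihood test and Benjamini-Hochberg adjustment over all genes. That fit took the cultures of a mouse at different times as independent. Its genotype p-values and SE can thus be too small for n = 3 mice per genotype. At T0, 3.97% of all genes were called lower and 5.60% higher in Cop1-floxed cells. Called lower at T0 were 10 of 12 tested collagens, 13 of 24 fibroblast matrix genes, 9 of 14 smooth muscle and pericyte genes, 5 of 18 marrow stromal and osteoblast genes, 8 of 26 TGF-beta pathway genes and 2 of 17 endothelial genes; called higher were 1 marrow stromal gene (Spp1) and 2 endothelial genes (Flt1 and Vwf). These lists were drawn up with earlier results known, and their counts are no independent evidence of direction. Fn1, fibronectin, averaged 76.6 ± 21.1 CPM in Cop1-floxed cultures and 247 ± 68.2 CPM in wild-type cultures (SD, n = 3 each; log2 fold change -1.69 ± 0.31, adjusted p = 0.000422). At T13, when 1.73% of all genes were called lower and 1.37% higher, the lower calls numbered 9 collagens, 6 fibroblast matrix genes, 2 smooth muscle and pericyte genes, 3 marrow stromal genes, 5 TGF-beta pathway genes and 1 endothelial gene, and 1 collagen, Col18a1, was called higher.

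Markers of other cell types were tested likewise. At T0 none of 12 macrophage markers was called lower and 4 were called higher, among them Lyz2, lysozyme, at 17111 CPM in Cop1-floxed cultures and 12320 CPM in wild-type cultures (log2 fold change 0.47 ± 0.09, adjusted p = 0.000399). Lower calls numbered 4 of 11 neutrophil and progenitor markers, 1 of 3 mast cell and basophil, 1 of 3 lymphocyte, 1 of 4 erythroid and platelet, 0 of 3 adipocyte and 2 of 4 cartilage markers. Fabp4, an adipocyte marker that macrophages also make, was called higher. At T13 the calls were 2 neutrophil and progenitor markers, Ltf and S100a8, and 1 adipocyte marker, Fabp4, higher, and 1 lymphocyte and 1 adipocyte marker lower.

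Between untreated and LPS-treated cultures the members changed in opposite directions and at different times. Since no untreated culture was sampled after T0, LPS and time in culture cannot be told apart in these changes. The contrast used here is the mean of both genotypes' changes against T0. It is independent of the genotype difference, which chose the members, only where the groups are equal in size and spread. Both rest on the same T0 libraries, so some dependence on the choice can remain. At T2.5, 7 of 34 members were higher and 3 lower at an adjusted p under 0.05, when 33.1% of all genes tested were higher and 34.7% lower. At T4, 9 were higher and 3 lower, against 34.8% and 40.9% of all genes. At T6, 12 were higher and 3 lower, against 35.3% and 43.1%, and at T9, 11 were higher and 5 lower, against 35.4% and 43.1%. At T13 the balance turned, with 7 higher and 18 lower, against 35.3% and 40.7% of all genes. At T6 and T9 the share of members called higher was near that of all genes, and no test compared the members' counts with these shares.

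These counts depend on scaling and pairing. With the mouse as a replicate block, 9 members were higher and 12 lower at T2.5. The block gave 14 higher and 7 lower for T4, 18 and 6 for T6, 17 and 8 for T9, then 7 and 26 for T13. Of all genes, 34.8% to 36.7% were higher in that fit over the 5 times, and the shares lower were 36.9%, 42.4%, 44.2%, 44.2% and 42.0% from T2.5 to T13. Over the 5 times the block added 46 calls of members and removed none; all 19 added as higher were below 0 with library totals. Division by the library total alone put the median log2 fold change of all genes between -1.13 and -0.69, against -0.14 to -0.04 with TMM, with 1 member higher and 21 lower at T2.5. The same scaling gave 2 higher and 23 lower for T4, 3 and 21 for T6, 3 and 19 for T9, then 4 and 27 for T13. Of all genes, 16.4% to 18.3% were higher under this scaling, and 67.1%, 71.0%, 72.7%, 71.1% and 67.6% were lower from T2.5 to T13. Single mice also mattered to the small counts. The 7 higher at T2.5 became 4 without Cop1-floxed mouse 1, 3 without Cop1-floxed mouse 3 and 4 without wild-type mouse 2, and the 3 lower became 5 without wild-type mouse 1. The 3 lower at T6 became 1 without Cop1-floxed mouse 3, wild-type mouse 2 or its T0 library, and 5 without wild-type mouse 1. The 11 higher at T9 became 7 without Cop1-floxed mouse 1. The 5 lower at T9 became 2 without Cop1-floxed mouse 2, its T9 library, Cop1-floxed mouse 3 or the wild-type mouse 2 T0 library, and 3 without Cop1-floxed mouse 1 or wild-type mouse 3.

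**Figure D4:**
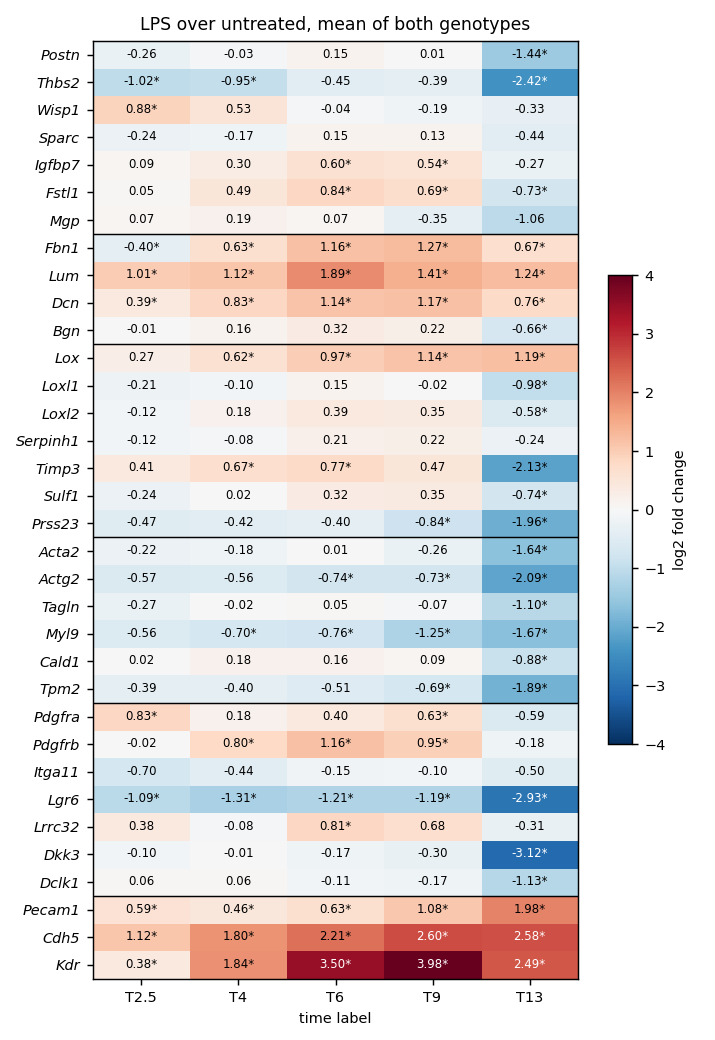
Log2 fold change of LPS-treated over untreated cultures, mean of both genotypes, for the 34 tested members (rows, separated by role) at the LPS times (columns); red is higher with LPS and an asterisk marks an adjusted p under 0.05 in edgeR's test. The T13 column holds most of the blue, down to -3.12 for Dkk3, and the bottom 3 rows are red throughout under TMM, up to 3.98 for Kdr, whereas library totals turned Kdr at T2.5 and Pecam1 up to T6.

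Kdr, Cdh5 and Pecam1 were higher in LPS-treated than in untreated cultures at all 5 times. With library totals, however, Kdr at T2.5 and Pecam1 at T2.5, T4 and T6 lay below 0. Kdr had 79.5, 92.2 and 108 CPM in Cop1-floxed and 84.6, 95.4 and 126 CPM in wild-type cultures at T9, against 6.32, 7.10 and 7.36 CPM in Cop1-floxed and 4.58, 5.83 and 6.0 CPM in wild-type cultures at T0. Every T9 library was more than 10 times every T0 library, and the fitted rise was 15.8-fold (log2 fold change 3.98 ± 0.12, adjusted p = 2.04e-23). Kdr was at 1.84 at T4, 3.50 at T6 and 2.49 at T13. With library totals its T2.5 value of 0.38 turned to -0.27, and those at T4 to T13 stayed between 0.95 and 3.05. Cdh5 reached 2.60 ± 0.18 at T9 (adjusted p = 2.14e-14) and 2.58 ± 0.18 at T13, and was higher at all 5 times with library totals too. Pecam1 was at 0.59 at T2.5, 0.46 at T4, 0.63 at T6, 1.08 at T9 and 1.98 ± 0.15 at T13 (adjusted p = 2.58e-13), but with library totals it was at -0.06, -0.42 and -0.36 at T2.5, T4 and T6 and at 0.16 and 1.31 at T9 and T13. Among the other endothelial genes Flt1, Flt4 and Eng, receptors that myeloid cells can also make, were called higher at T13, and 5 of 17 were called lower.

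Among structural matrix genes Fbn1, Dcn and Lum rose in the middle of the course, with signs turned by library totals for Fbn1 at T4 and Dcn at T2.5 and T4. Fbn1 was lower at T2.5 (-0.40 ± 0.12, adjusted p = 0.00536) and higher at T9 (1.27 ± 0.12, adjusted p = 6.24e-11). Dcn was higher at all 5 times, with 1.17 ± 0.16 at T9, and Lum, at very low counts, had 1.89 ± 0.43 at T6. With library totals Dcn was called at no time (0.25 at T9, adjusted p = 0.141). Under that scaling Fbn1 was called higher at T9 alone (0.34, adjusted p = 0.0126). Lum stayed above 0 at all 5 times with library totals, but was called at T6 alone (adjusted p = 0.0469). Bgn, the most abundant, changed its calls with the pairing. With the mouse as a block it was higher at T4 (0.17, adjusted p = 0.00306), T6 (0.33, adjusted p = 9.55e-07) and T9 (0.24, adjusted p = 0.000112), where library totals put it between -0.72 and -0.66, and lower at T13 (-0.66, adjusted p = 1.69e-12). Without the block it was not called before T13, when it was at -0.66 ± 0.27 (adjusted p = 0.0277); that unpaired call was lost without any 1 of the Cop1-floxed mice (adjusted p = 0.0855, 0.0704 and 0.104 without mouse 1, 2 and 3), without wild-type mouse 3 (adjusted p = 0.0669) and without the T0 library of wild-type mouse 2 (adjusted p = 0.111).

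Of the matrix enzymes and inhibitors, Lox and Timp3 moved most in opposite directions at T13. Lox was at 0.62 at T4, 0.97 at T6, 1.14 at T9 and 1.19 ± 0.16 at T13 (adjusted p = 1.07e-07), and with library totals at -0.26, -0.02, 0.22 and 0.52. Timp3 was higher at T4 (0.67 ± 0.29, adjusted p = 0.0367) and T6 (0.77 ± 0.29, adjusted p = 0.0170), both below 0 with library totals. At T13 it had 3.83, 5.31 and 5.96 CPM in Cop1-floxed and 14.6, 32.4 and 35.4 CPM in wild-type cultures, against 15.9, 25.5 and 26.8 CPM and 63.5, 142 and 144 CPM at T0. Both genotypes were lower at T13 than at T0 in every mouse, a fitted 4.38-fold fall (adjusted p = 3.05e-07). Prss23, Loxl1, Sulf1 and Loxl2 also fell at T13, by 1.96, 0.98, 0.74 and 0.58, and Serpinh1 was at -0.24 (adjusted p = 0.353, or 0.00357 with the mouse as a block). The block also called Timp3 higher at T2.5 and T9, Loxl2 at T4, T6 and T9, Serpinh1 at T6 and T9 and Loxl1 at T6, all below 0 with library totals, and Prss23 lower at T2.5, T4 and T6.

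All 6 contractile genes fell at T13. The log2 fold changes were -2.09 for Actg2, -1.89 for Tpm2, -1.67 for Myl9, -1.64 for Acta2, -1.10 for Tagln and -0.88 for Cald1, with adjusted p between 6.73e-07 and 0.000494. Acta2 had 9.86, 11 and 14 CPM in Cop1-floxed and 21.4, 29.8 and 41.8 CPM in wild-type cultures at T13, against 23.7, 28.9 and 33.9 CPM and 70.6, 102 and 191 CPM at T0. No T13 library overlapped the T0 libraries of its genotype. Without the block, Myl9 was lower from T4 on, Actg2 from T6 and Tpm2 from T9, whereas Acta2, Tagln and Cald1 passed the test at T13 alone. This order depended on the fit. With the mouse as a block Myl9, Actg2 and Tpm2 were lower at all 5 times, Acta2 also at T2.5 (-0.19, adjusted p = 0.0343) and T9 (-0.25, adjusted p = 0.00697), and Tagln also at T2.5 (-0.23, adjusted p = 0.0288), while Cald1 still passed at T13 alone. With library totals all 6 were lower at all 5 times.

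Among receptors and signalling genes, Dkk3, Lgr6 and Dclk1 fell at T13, by 3.12 ± 0.48, 2.93 ± 0.37 and 1.13 ± 0.30. Lgr6 was lower at all 5 times, between -1.31 and -1.09 up to T9. Pdgfrb rose in the middle, with 1.16 ± 0.16 at T6 (adjusted p = 7.74e-08), and was at -0.18 at T13 (adjusted p = 0.319); with library totals its T4 value turned to -0.08 and its T6 value was 0.16. Pdgfra was higher at T2.5 and T9 (0.63, or -0.29 with library totals), and Lrrc32 at T6 (0.81 ± 0.34, adjusted p = 0.0315), where library totals turned the sign of Lrrc32. Itga11 did not pass at any time without the block, with values between -0.70 and -0.10. With the mouse as a block it was lower at T2.5 (adjusted p = 0.00193), T4 (adjusted p = 0.0322) and T13 (adjusted p = 0.0121), and with library totals at all 5 times. The block also called Lrrc32 higher at T2.5 and T9 and Pdgfra higher at T6, all below 0 with library totals, Lrrc32 and Pdgfra lower at T13, and Dkk3 lower at T9.

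Among the secreted regulators Thbs2, Postn and Fstl1 fell at T13, by 2.42 ± 0.30, 1.44 ± 0.20 and 0.73 ± 0.27. Thbs2 was already lower at T2.5 (-1.02 ± 0.27, adjusted p = 0.00132) and T4, and with the mouse as a block at all 5 times. Wisp1 was higher at T2.5 (0.88 ± 0.27, adjusted p = 0.00520) and was not called later without the block, which called it higher at T4 (adjusted p = 0.00853; below 0 with library totals) and lower at T13 (adjusted p = 0.0314). Fstl1 and Igfbp7 were higher at T6 and T9, and with the block at T4 too, with the sign turned by library totals. The block also called Igfbp7 lower at T13, Postn and Sparc lower at T2.5 and Sparc higher at T6 and T9, where library totals put it below 0. Sparc and Mgp were at -0.44 (adjusted p = 0.119) and -1.06 (adjusted p = 0.156) at T13; with the mouse as a block these had adjusted p = 4.58e-06 and 0.000237.

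The fall came late. Comparing T13 with T2.5, both LPS-treated, 18 members were lower and 6 higher, against 38.3% and 36% of all genes. Between T13 and T9, a contrast added after the data were seen, 24 were lower and 1 higher, against 33.7% and 33.6% of all genes tested, and the members' median log2 fold change was -0.97, against -0.00 over all genes. Timp3 had 3.83, 5.31 and 5.96 CPM in Cop1-floxed and 14.6, 32.4 and 35.4 CPM in wild-type cultures at T13, against 19.8, 31.7 and 35.6 CPM and 85.8, 193 and 247 CPM at T9, a log2 fold change of -2.60 ± 0.31 (adjusted p = 1.46e-08). Dkk3 was at -2.81 ± 0.50, Thbs2 at -2.03 ± 0.31 and Lgr6 at -1.74 ± 0.42. Kdr fell by 1.49 ± 0.11 (adjusted p = 4.51e-13) after its peak, and Pecam1 was the member that rose, by 0.90 ± 0.14 on the log2 scale (adjusted p = 2.74e-06). In all 6 mice 25 members were lower at T13 than at T9, which was true of 29.6% of all genes tested. Library totals, which moved the median of all genes to 0.25, left 19 members lower and 1 higher, against 23.1% and 46.3% of all genes. The block gave 29 lower, Myl9, Sparc, Serpinh1, Mgp and Itga11 being added, against 35.3% of all genes. Of the 34 members, 26 had their lowest mean level at T13 and 14 their highest at T6, against 22.8% and 11% of all genes.

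**Figure D5:**
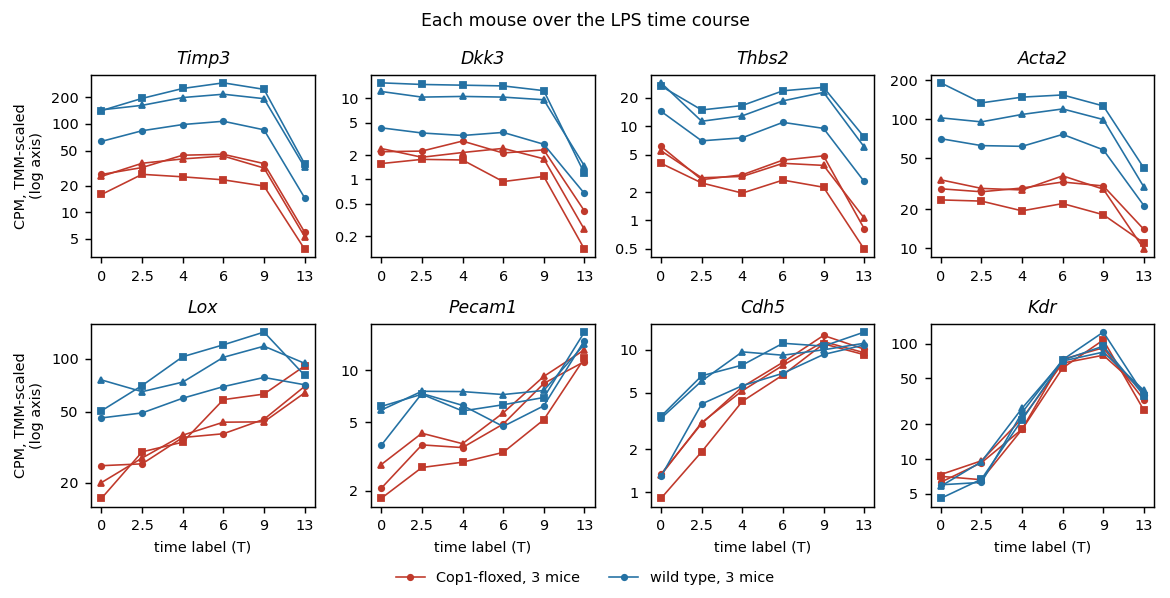
TMM-scaled CPM (log axis) of 8 members in each mouse over the 6 time labels, drawn evenly spaced; circles, squares and triangles are mice 1, 2 and 3 of each genotype. Timp3, Dkk3, Thbs2 and Acta2 drop between T9 and T13 in all 6 mice. The genotypes overlap for Lox at T13. For Pecam1 they overlap at T6 and T9, and at T13 all Cop1-floxed mice are lower again. For Cdh5 all Cop1-floxed mice are higher at T9 and lower at T13. The Kdr lines of both genotypes run together to a peak of 79.5 to 126 CPM at T9.

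Responses within each genotype share their untreated libraries with the genotype comparison that chose the members. In Cop1-floxed cells 6 members were higher and 12 lower at T13, against 30.8% and 35.0% of all genes, and in wild-type cells 6 were higher and 15 lower, against 32.6% and 34.7%. Dkk3 changed by -2.97 ± 0.78 in Cop1-floxed and -3.27 ± 0.59 in wild-type cells, and Timp3 by -2.18 ± 0.45 and -2.09 ± 0.42. Kdr changed by 2.23 ± 0.17 and 2.75 ± 0.17, Cdh5 by 3.01 ± 0.26 and 2.15 ± 0.24, and Lox by 1.87 ± 0.24 and 0.51 ± 0.23, in the same order of genotypes. Whether the responses differed was not tested, since that difference contains the genotype contrasts.

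Lists of other stromal genes had the following T13 calls in the mean of both genotypes, higher and lower: 1 and 8 of 12 collagens, 3 and 15 of 24 fibroblast matrix genes, 2 and 11 of 18 marrow stromal genes, 4 and 6 of 14 smooth muscle and pericyte genes, 3 and 5 of 17 endothelial genes, and 8 and 12 of 26 TGF-beta pathway genes. Fn1 fell by 1.61 (adjusted p = 8.61e-08), whereas Col1a1, the main fibrillar collagen chain, was at -0.28 (adjusted p = 0.333). Macrophage markers split evenly, with 5 higher and 4 lower of 12. Higher and lower calls were 3 and 3 of 11 neutrophil and progenitor markers, 0 and 0 of 3 mast cell and basophil, 1 and 1 of 3 lymphocyte, 2 and 2 of 4 erythroid and platelet, 0 and 3 of 3 adipocyte, and 0 and 2 of 4 cartilage markers; their part in the fall of the members was not tested.

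Promoter sequences are shown for Thbs2, Timp3 and Myl9, 3 genes of different roles that fell at T13, so that the letters before their starts can be compared. They come from RefSeq (GRCm38.p6), which gave promoters for 19 members, and run 5′ to 3′ on the gene's own strand. Each starts 250 bases before the transcript start and stops before any exon of GENCODE vM21 and before the RefSeq gene span. The stretches are chr17:14694263-14694512 (minus strand) for Thbs2, chr10:86300162-86300371 (plus) for Timp3 and chr2:156775214-156775407 (plus) for Myl9. Capitals mark matches on either strand to the motifs named in the next paragraph.
Thbs2: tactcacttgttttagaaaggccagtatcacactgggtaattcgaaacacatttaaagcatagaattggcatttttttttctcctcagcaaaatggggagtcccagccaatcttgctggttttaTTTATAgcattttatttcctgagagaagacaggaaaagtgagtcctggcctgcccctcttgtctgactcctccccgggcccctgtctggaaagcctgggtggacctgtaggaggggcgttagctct
Timp3: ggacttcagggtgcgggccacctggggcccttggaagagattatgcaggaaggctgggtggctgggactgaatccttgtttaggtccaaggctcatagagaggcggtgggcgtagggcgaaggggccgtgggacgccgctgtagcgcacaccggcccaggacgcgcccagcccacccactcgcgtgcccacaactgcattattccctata
Myl9: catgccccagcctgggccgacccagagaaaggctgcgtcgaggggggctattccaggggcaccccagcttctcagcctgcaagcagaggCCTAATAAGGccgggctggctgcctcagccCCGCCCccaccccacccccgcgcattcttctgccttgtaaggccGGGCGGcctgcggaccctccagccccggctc

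The motifs searched on both strands were the CArG box bound by serum response factor, the AP-1 site TGANTCA, the ETS site CCGGAA, the TATA box TATAAA and the GC box GGGCGG, which occur in 1.47%, 6.75%, 12%, 12.4% and 32.7% of the 32851 RefSeq promoter windows of 250 bases. Of the 19 members with a promoter, Myl9 held the CArG box, 161 to 152 bases before its start, and Kdr, which rose, held the ETS site. AP-1 sites were in Cald1, Dclk1 and Prss23, TATA boxes in Cald1, Postn and Thbs2, and GC boxes in 11 members. No motif overlapped another in the stretches shown. The stretch shown for Timp3, cut to 210 bases, held none of the 5. Timp3 is still among the 11 members with a GC box, which lay outside the stretch shown. A match describes the letters in the window and nothing about binding.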

How the data were processed

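Polyadenylated RNA was sequenced from 36 libraries. The deposited table holds counts of uniquely aligning reads per Entrez gene model, not normalised, and the deposited RPKM table holds values that the authors adjusted by size factors, both per the file headers; a deposited gene table gives another value, gene size, and the symbols. The submitters' processing notes name GSNAP as a tool and GRCm38 as the build. Versions and the strand setting are not given in the sources used here, and reads of overlapping genes cannot be told apart.

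Tests on counts used edgeR 4.0.16 under R 4.3.3 (filterByExpr over 12 groups, leaving 15685 genes; TMM scaling; quasi-likelihood test; 1 mean per group; Benjamini-Hochberg adjustment over all genes; threshold 0.05). The fit was tested on simulated data. The T13 against T9 contrast and leaving out the wild-type mouse 2 T0 library were chosen after seeing the data. DESeq2 1.42.0 was an alternative. SE is the log2 fold change over the root of F. CPM are TMM-scaled counts; the spread between mice used log2 of CPM plus 0.1. Each mouse gave 1 culture per time, per the labels' individual numbers, so LPS comparisons are paired: deviations correlated with a median r of 0.349 within a mouse over times and -0.171 between mice of 1 genotype.

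The members, lists and roles were chosen with earlier results of these data known. All members are named. Shown library by library are, in each role, the member with the highest mean RPKM in wild type and the one with the largest T0 fold change among those of at least 1 CPM in untreated wild type. For other lists the rule gave up to 4 genes by adjusted p at T0 among those averaging at least 1 CPM, and only some are printed. Cdh5, Dkk3 and Acta2 by library, and Col18a1, Ltf, S100a8 and the named endothelial genes were added after their values were seen.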

Additional observations from a re-analysis of the deposited data

Results flagged for a closer look

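Between T9 and T13 all 3 mice of 1 genotype moved one way and all 3 of the other the opposite way for Lox and for Cdh5; the difference was not tested. The log2 fold change of Lox at T13 against T9 was 0.56 in Cop1-floxed cells and -0.45 in wild-type cells. That of Cdh5 was -0.27 in Cop1-floxed cells and 0.24 in wild-type cells.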

How the results depend on the processing

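The median genotype difference of the members moved by less than its SD between mice, 0.407 to 0.492, at all 6 times under every alternative run. Leaving out 1 of 3 mice can hardly shift a group mean by that SD, so those runs cannot show stability. The members were also partly chosen by this contrast, so its values are a description. Without each mouse in turn the median ranged from -2.03 to -1.56 at T0, -1.95 to -1.50 at T2.5 and -2.08 to -1.51 at T4. At T6, T9 and T13 it ranged from -2.07 to -1.60, -1.96 to -1.48 and -2.06 to -1.47. With the replicate number as a block, which between genotypes marks different mice (same-numbered pairs had a median r of -0.2), it was -1.73 at T0 and -1.71 at T13. Counts of members called with LPS depended on scaling. Library totals gave 1 higher and 21 lower for T2.5, 2 and 23 for T4, 3 and 21 for T6, 3 and 19 for T9, and 4 higher for T13, against 16.4% to 18.3% of all genes higher and 67.1% to 72.7% lower. The replicate block gave 12 lower at T2.5, 14 higher and 7 lower at T4, 6 lower at T6, and 17 higher and 8 lower at T9, against 34.8% to 36.7% and 36.9% to 44.2% of all genes. DESeq2, and DESeq2 size factors in edgeR, each gave 3 lower at T9. Without the T9 library of Cop1-floxed mouse 2 there were 2 lower at T9, and without the T0 library of wild-type mouse 2, an alternative chosen after seeing the data, 1 lower at T6 and 2 at T9. Without each mouse in turn the counts were 3 to 7 higher and 3 to 5 lower at T2.5, 6 to 11 and 2 to 3 at T4, 9 to 13 and 1 to 5 at T6, 7 to 14 and 2 to 5 at T9, 6 to 7 and 13 to 21 at T13, 5 to 6 and 14 to 23 for T13 against T2.5, and 1 and 18 to 26 for T13 against T9. Over all genes, library totals gave 2873 higher and 10607 lower at T13, against 5531 and 6381 with TMM. Genotype calls over all genes, which the other lists use, were 878 higher and 623 lower at T0 and 215 and 271 at T13; without each mouse in turn they ranged from 381 to 1421 and 261 to 980 at T0 and reached 55 and 42 at T13 without Cop1-floxed mouse 2. Library totals gave 380 higher at T0, a mean of at least 1 CPM 574, DESeq2 372 higher at T13, and leaving out the wild-type mouse 2 T0 library 337 lower at T0. The cause of these changes was not tested. Of the other 462 values of single genes under alternatives, 426 kept their side of the threshold, 20 gained and 16 lost a call, and none was reversed. Each group had n = 3 mice. Thy1 and Eln, with counts as low as 0 per library, did not pass the filter, so their differences were not tested in the main fit. The p-values of LPS contrasts rest on 6 mice, and without the mouse as a block they are not paired. Those of genotype contrasts rest on 3 mice per genotype, whose cultures at different times the fit took as independent.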
